A study of Homo sapiens with 4 samples.

Results

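The EGR genes (EGR1, EGR2, EGR3 and EGR4) and the NR4A genes (NR4A1, NR4A2 and NR4A3) encode 2 small families of transcription factors of the immediate early response, and their transcript levels are described here in H1299 cells with and without induced mouse p53. The members are the complete families by name. For each gene the probe set was chosen by its brightness, the highest mean over all 4 arrays, among probe sets annotated to exactly 1 gene. That rule found 6 of the 7 genes, out of 18417 genes measured, and each of the 6 had 1 probe set, so brightness discarded none. No level of EGR2 was analysed here, and for that gene only promoter windows were read. Both families were picked with earlier results of these arrays known, among them the higher EGR1 and NR4A1 levels after induction, so the members' own differences are given as a description, with the call of the fit over all genes and no p-value of their own.

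H1299 is an established human lung carcinoma line without p53 of its own, and the cells on all 4 arrays carried a stable tet-on construct for wild-type mouse p53. Induced cells had received doxycycline, which turns on tet-on constructs, at 0.5 µg/mL for 24 hours, and uninduced cells were sampled before induction. Each group had 2 arrays, which the labels call technical replicates, so errors below describe the spread between arrays and not between cultures. None of these arrays shows doxycycline without the construct or uninduced cells at the later time, so p53, the drug and the time in culture cannot be told apart.

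Immediate early genes are switched on by signals such as serum, growth factors, depolarisation or stress without the need for new protein, and most are switched off again soon after. The EGR proteins bind GC-rich sites through C2H2 zinc fingers and are held in check by the corepressors NAB1 and NAB2. The NR4A proteins are orphan nuclear receptors that act without a known physiological ligand and bind the NBRE, AAAGGTCA, as monomers. The ERK cascade reaches the EGR1 promoter through SRF, which binds CArG boxes together with ELK factors, while CREB, at cyclic AMP response elements (CREs), and MEF2 factors are known routes to the NR4A genes.

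The promoters of 3 members are shown because EGR1 and NR4A3 were called higher in induced cells and EGR4 was not called, while all 3 hold signal-response motifs. They are RefSeq windows of GRCh38.p14, from 250 bases before to 50 bases after a transcript start, printed 5′ to 3′ on the gene's strand. Capitals mark CArG boxes and CRE half-sites (TGACG or its reverse complement CGTCA). EGR1 lies at chr5:138465229-138465528 on the plus strand, EGR4 at chr2:73293499-73293798 on the minus strand and NR4A3 at chr9:99821635-99821934 on the plus strand.
EGR1: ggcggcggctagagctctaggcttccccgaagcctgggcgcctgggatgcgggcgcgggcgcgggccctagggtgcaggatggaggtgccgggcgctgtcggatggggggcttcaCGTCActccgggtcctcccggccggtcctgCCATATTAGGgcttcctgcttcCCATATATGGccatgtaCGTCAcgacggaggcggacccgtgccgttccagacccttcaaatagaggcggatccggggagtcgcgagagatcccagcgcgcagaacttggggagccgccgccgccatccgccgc
EGR4: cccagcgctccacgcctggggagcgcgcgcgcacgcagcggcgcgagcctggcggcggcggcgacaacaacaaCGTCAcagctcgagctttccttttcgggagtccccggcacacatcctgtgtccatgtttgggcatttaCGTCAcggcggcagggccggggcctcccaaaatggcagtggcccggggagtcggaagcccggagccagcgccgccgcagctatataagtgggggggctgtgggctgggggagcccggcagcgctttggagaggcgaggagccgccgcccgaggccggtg
NR4A3: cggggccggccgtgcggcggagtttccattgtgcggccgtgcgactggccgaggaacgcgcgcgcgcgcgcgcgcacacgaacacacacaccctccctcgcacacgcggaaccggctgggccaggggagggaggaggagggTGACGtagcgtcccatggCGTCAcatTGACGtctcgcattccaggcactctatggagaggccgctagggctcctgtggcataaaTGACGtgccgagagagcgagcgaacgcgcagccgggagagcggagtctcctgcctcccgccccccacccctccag

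The EGR1 window held 2 CArG boxes, CCATATTAGG at -105 to -96 and CCATATATGG at -83 to -74 from the start, and 2 CRE half-sites on its minus strand. Upstream of them, at -198 to -190, lay a match to the EGR site GCGNGGGCG. EGR4 had 2 CRE half-sites and no CArG box, and NR4A3 had 4 CRE half-sites. The 2 NR4A1 windows had no match to either. Of the 3 EGR2 windows, one held a CArG box at -71 to -62 and 2 CRE half-sites, another held an EGR site at 9 to 17, and the remaining one had no match. Both strands were searched, and no printed motifs overlapped. Of 35116 windows of the same length, 1.29% held a CArG box, 24.6% a CRE half-site, 1.85% the full CRE TGACGTCA, 9.43% the EGR site and 1.22% the NBRE. The EGR1, EGR2, EGR4, NR4A1 and NR4A3 windows held neither a full CRE nor an NBRE, and no match to the p53 half-site, which 6.63% of all windows held. A complete p53 response element, a pair of half-sites with at most 13 bases between them, was in 0.0285% of all windows and in none of these. These are matches of letters in short windows only.

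**Figure D1:**
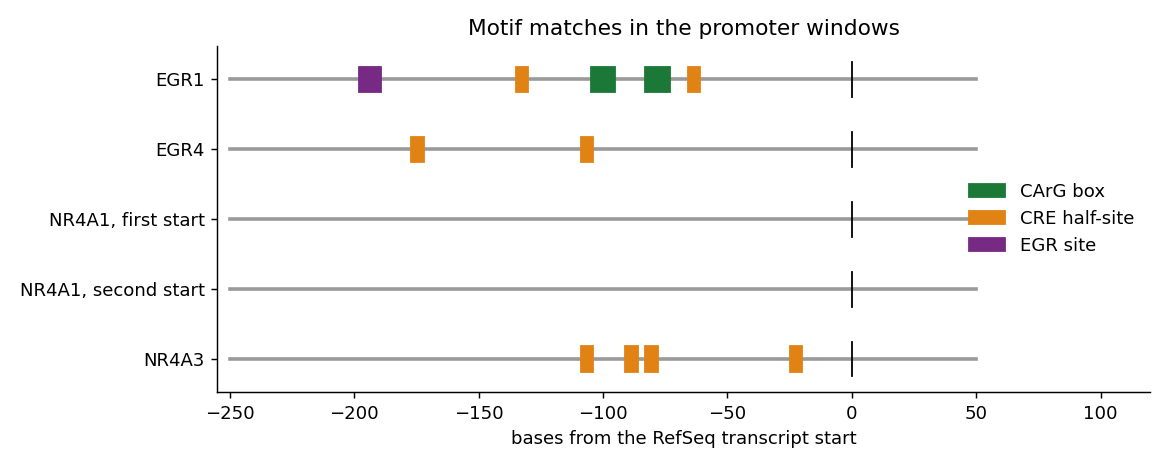
Positions of motif matches in the promoter windows of EGR1, EGR4, NR4A1 (2 windows) and NR4A3, in bases from the RefSeq transcript start (black tick). Among the windows drawn, which leave out EGR2, EGR1 alone shows CArG boxes (green) and an EGR site (purple). EGR1, EGR4 and NR4A3 all show CRE half-sites (orange), and both NR4A1 lines are empty.

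Of the 6 measured members, 4 were higher in induced than in uninduced cells by limma's test across all genes, where a Benjamini-Hochberg adjusted p under 0.05 counts as called, 0 were lower and 2 did not pass. Over all 18417 genes, 20.6% were called higher, 24.6% lower and 45.1% in either direction. At least 2-fold, 3 members were higher, where 6.48% of all genes were called higher by that much and 6.77% lower. The induced arrays lay above the uninduced ones without overlap for all 6 members, and for 32.5% of all genes. The members' median log2 difference was 1.2, against 0.0 over all genes. No filter on low values was used. The number called over all genes was 8311, and fell to 5043 without uninduced array 1 and 4959 without uninduced array 2, where 4 and 3 members were called. In bulk RNA, more cells expressing a gene and more RNA per cell cannot be told apart.

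EGR1 (probe set 8108370), the founding member of its family and a regulator of growth, wound and stress responses, gave levels of 11.14 and 11.25 log2 units on the induced arrays, against 8.42 and 8.46 on the uninduced arrays. Both induced arrays stood far above both uninduced ones, with a gap of 2.68 log2 units between the nearest arrays of the groups. The means were 11.20 ± 0.078 induced and 8.44 ± 0.028 uninduced (SD, n = 2 arrays each). EGR1 was thus 6.75-fold higher, a log2 difference of 2.76 (SE 0.086), and ranked 87th among all genes by its difference.

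The other EGR genes measured were not called. EGR3 (probe set 8149720), a factor of muscle spindle and lymphocyte development, read 7.07 and 6.98 log2 units induced, against 6.90 on each uninduced array. EGR4 (probe set 8053022), known mainly from neurons and the germ line, read 7.45 and 7.46 induced, against 7.34 and 7.29 uninduced. For both, the induced arrays lay just above the uninduced ones, by 0.08 and 0.11 log2 units between the nearest arrays. The log2 difference was 0.13 for EGR3, with a 95% interval from -0.07 to 0.32, and 0.14 for EGR4, with an interval from -0.05 to 0.33. Both intervals end far below the EGR1 difference, whose own interval ran from 2.55 to 2.96. The EGR3 probe set was among the dimmest 40% by mean level, and whether low signal limited its difference was not tested.

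All 3 NR4A genes were called higher, by 0.41 to 2.29 on the log2 scale. NR4A1 (probe set 7955589), which encodes NUR77, a receptor known for its role in T cell apoptosis and in metabolic and vascular cells, reached 10.05 and 9.96 log2 units on the induced arrays, against 7.73 and 7.71 on the uninduced arrays. The groups were separated by 2.23 log2 units at their nearest, and the means of 10.01 ± 0.064 induced and 7.72 ± 0.014 uninduced (SD, n = 2 each) gave a 4.87-fold difference, or 2.29 on the log2 scale (SE 0.084). NR4A3 (probe set 8156848), which encodes NOR1, had levels of 9.32 and 9.20 induced, against 7.30 and 7.26 uninduced. Its means of 9.26 ± 0.085 induced and 7.28 ± 0.028 uninduced (SD, n = 2 each) differed 3.94-fold, or by 1.98 (SE 0.087).

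NR4A2 (probe set 8055952), which encodes NURR1, a factor needed for midbrain dopamine neurons, was 7.63 and 7.69 induced, against 7.40 and 7.10 uninduced. The 2 uninduced arrays differed by 0.30 log2 units from each other, more than on any other member, and only 3.07% of all genes had a larger SD between the uninduced arrays. The difference was 1.33-fold, or 0.41 on the log2 scale (SE 0.11). That call ended without induced array 1, without induced array 2 and without uninduced array 2, where the difference was 0.44, 0.38 and 0.26. It also ended with the replicate number as a block, over all rows of the table and with limma's treat, which tests against a fold of 1.2.

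**Figure D2:**
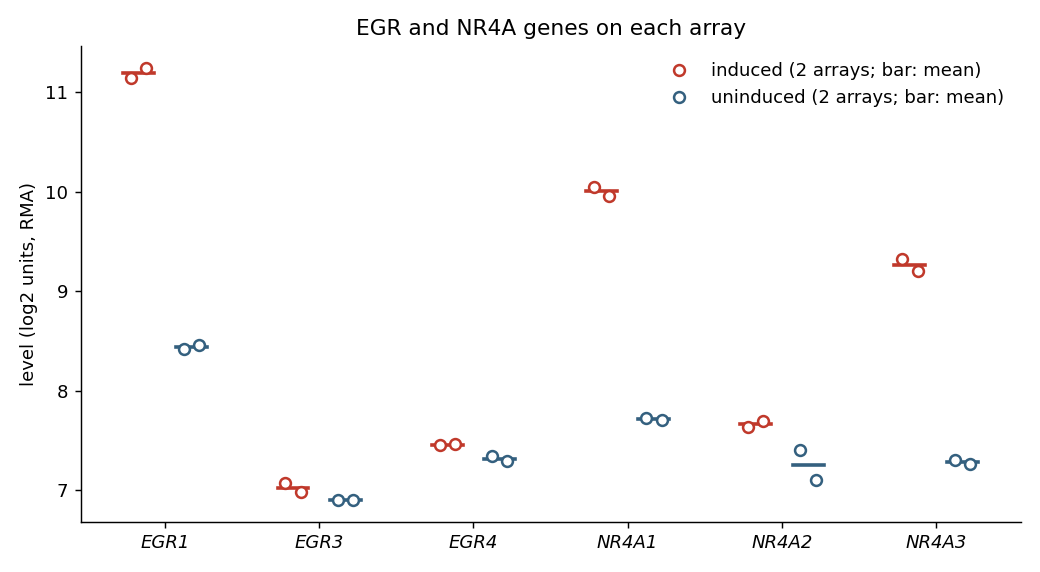
Levels of the 6 measured genes in log2 units on each induced (red, left) and uninduced (blue, right) array, with group means as bars. EGR1, NR4A1 and NR4A3 separate widely, while the EGR3, EGR4 and NR4A2 groups lie within 0.41 log2 units of each other.

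By the size of the log2 difference, EGR1 was followed by NR4A1 and NR4A3, whose 95% intervals were 2.09 to 2.48 and 1.77 to 2.19 and overlapped each other. The EGR1 interval did not overlap either. Across all genes, 0.467% had a larger rise than EGR1, 0.999% than NR4A1, 1.52% than NR4A3 and 16.0% than NR4A2, whereas 30.2% exceeded EGR4 and 31.7% exceeded EGR3. Levels of different members are not set against each other, since probes differ in affinity.

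As a check of induction, 2 known p53 targets were read on the same arrays, and both were called higher. That check does not tell p53 from the drug or the time in culture. CDKN1A, the p21 inhibitor of cyclin-dependent kinases, read 12.63 and 12.50 log2 units induced, against 9.16 and 9.11 uninduced. MDM2, the ubiquitin ligase that degrades p53, read 12.70 and 12.76 induced, against 9.84 and 9.85 uninduced. Of the 19 blood, fibroblast and endothelial markers, 3 were higher in induced cells: ITGAM, an integrin of myeloid cells (log2 difference 1.33), TEK (0.34) and CD3E (0.26). The 8 blood markers summed to between 47.4 and 48.7 log2 units on the induced arrays, against 46.2 to 47.0 on the uninduced arrays. Without ITGAM the other 7 summed to between 38.4 and 39.7 induced, against 38.6 to 39.3 uninduced, and the groups overlapped. The 11 fibroblast and endothelial markers summed to between 66.0 and 67.1 induced, against 65.6 to 66.2 uninduced. PTPRC, which defines blood cells, averaged 4.11 log2 units induced and 3.98 uninduced, and the part of other cells in the members' differences was not tested. Of 9 markers of lung epithelium, SCGB1A1 (2.03) and SFTPC (0.29) were higher and 7 did not pass. The 22.2% higher is near the 20.6% of all genes. NKX2-1, a defining factor of lung adenocarcinoma, averaged 6.09 log2 units induced and 6.18 uninduced.

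The genes that lie near the members on the chromosome were compared next, taking the 3 nearest measured genes on each side in the RefSeq order. Genes without a measured level can lie between, and distances in bases were not used. Of 36 such neighbours, 6 were higher, 10 lower and 20 not called, with a median log2 difference of -0.03. Those are 16.7% higher and 27.8% lower, against 20.6% and 24.6% over all genes, so the neighbours were called about as often as genes in general. Without uninduced array 2, 9 of the 36 were called in all. On chromosome 5, REEP2, a gene of endoplasmic reticulum shaping proteins, was the nearest measured gene on one side of EGR1. REEP2 read 9.97 and 10.17 log2 units induced, against 8.13 and 7.98 uninduced. Its log2 difference of 2.02 (SE 0.10, limma adjusted p = 4.97e-06) stands beside lower levels of ETF1 (-0.61) and HSPA9 (-0.52) on the other side of EGR1, and no call for KDM3B (0.14).

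Of the 6 neighbours of NR4A1 on chromosome 12, 0 rose and 2 fell. KRT80, an epithelial keratin, was 7.12 and 7.37 induced, against 8.26 and 8.29 uninduced, and fell by 1.03 on the log2 scale (SE 0.10). ATG101 and TAMALIN, the nearest measured genes on either side of NR4A1, did not pass (-0.17 and 0.18). Near NR4A3 on chromosome 9, TGFBR1, the type I receptor for TGF-beta, was 10.64 and 10.67 induced, against 8.44 and 8.40 uninduced, a rise of 2.24 (SE 0.082). The 2 measured genes between TGFBR1 and NR4A3, ALG2 and SEC61B, did not pass, with differences of -0.02 and -0.15. On chromosome 2, FMNL2 rose by 0.90 (SE 0.097) near NR4A2, whereas ALMS1, a centrosome gene near EGR4, fell by 1.79 (SE 0.098). Of the nearest measured genes on either side of NR4A2, RPRM was called higher (0.75) and GPD2 lower (-0.675). Near EGR3, the death receptor gene TNFRSF10B, a p53 target, rose by 1.30 (SE 0.083). The nearest measured genes on either side of EGR3 itself were BIN3-IT1 (-0.49) and PEBP4 (0.14).

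**Figure D3:**
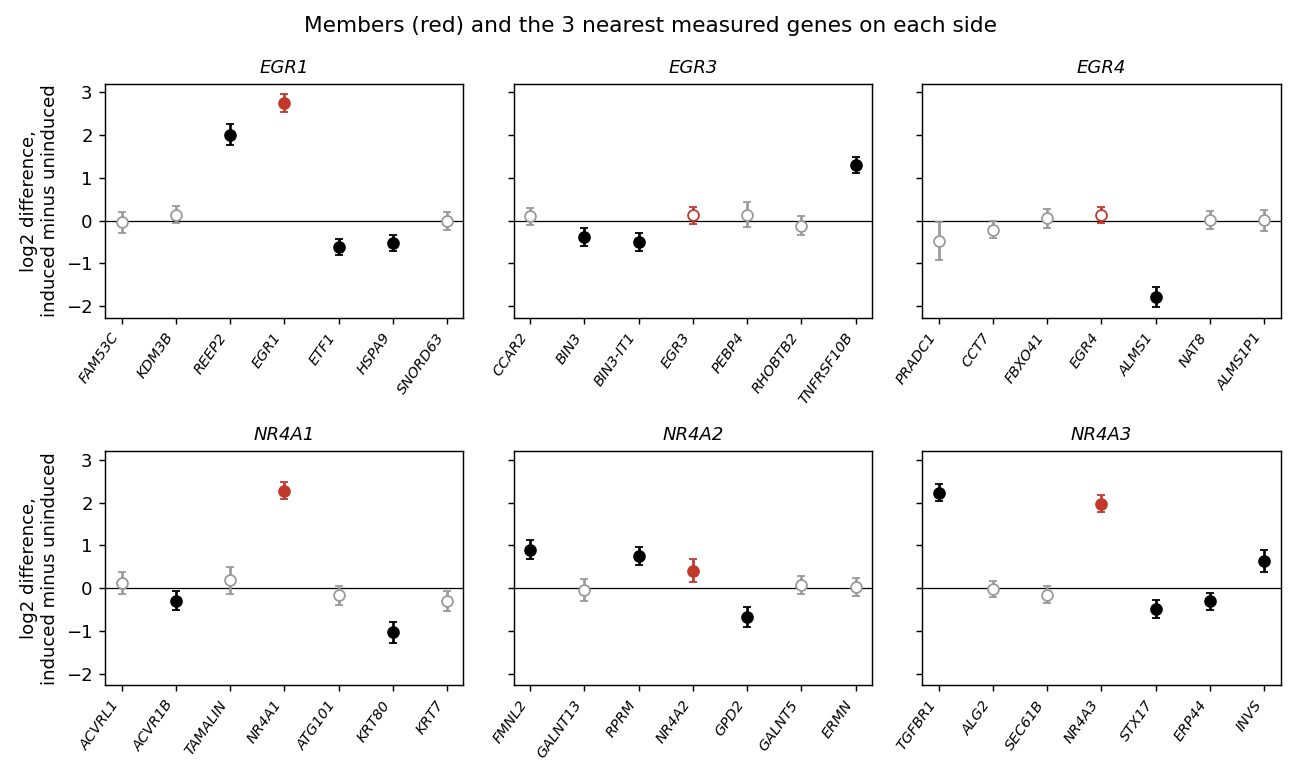
Log2 differences, induced minus uninduced, with 95% intervals for each member (red) and its 3 nearest measured genes on either side in chromosome order; filled points passed the threshold. REEP2 near EGR1 (2.02) and TGFBR1 near NR4A3 (2.24) rose, and most other neighbours lie near or below 0.

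Of 17 measured regulators that act on EGR and NR4A promoters, 6 rose, 5 fell and 6 did not pass, with a median log2 difference of 0.02. The shares were 35.3% higher and 29.4% lower, against 20.6% and 24.6% over all genes. None of the list shares given from here on was tested against those of all genes, and none is taken as particular to its list. SRF, the CArG box factor, was 10.61 and 10.60 log2 units induced, against 10.13 and 10.17 uninduced, a rise of 0.46 (SE 0.081, limma adjusted p = 0.00252) whose call ended without uninduced array 1. MRTFB, an actin-regulated coactivator of SRF, was 9.07 and 9.35 induced, against 8.07 and 7.92 uninduced, and rose 2.32-fold. MEF2A, a MADS box factor that acts on NR4A genes, rose 2.90-fold, with 10.33 and 10.30 induced and 8.76 and 8.80 uninduced. CREB1, the cyclic AMP response factor, fell by 0.85 (SE 0.10) and MEF2C fell by 0.70 (SE 0.085). The 3 ELK factors gave 2 falls, ELK3 (-0.66) and ELK1 (-0.36), and no call for ELK4 (-0.09). Without uninduced array 1, and likewise without uninduced array 2, 3 regulators rose and 3 fell, and 3 fell without induced array 1.

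Upstream, 3 of 12 kinases and GTPases of the ERK and related cascades rose, 3 fell and 6 did not pass (median 0.06), so that 25% were called each way, close to the shares over all genes. RPS6KA1, the kinase RSK1 that ERK activates, read 10.25 and 10.14 induced, against 8.41 and 8.49 uninduced, a 3.35-fold rise. HRAS, a small GTPase at the head of the cascade, rose 3.08-fold, and the related kinase genes RPS6KA3 and RPS6KA5 fell by 1.21 (SE 0.11) and 0.65 (SE 0.085). The ERK gene MAPK3 (0.10) and its activators MAP2K1 (0.08) and MAP2K2 (-0.15) did not pass. Transcript levels do not report the activity of these kinases.

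Among 14 feedback inhibitors of ERK signalling, themselves often early response genes, 5 rose, 3 fell and 6 did not pass, with a median of -0.04. That is 35.7% higher and 21.4% lower, where all genes gave 20.6% and 24.6%. DUSP1, a nuclear phosphatase of MAP kinases, read 11.14 and 11.16 induced, against 9.55 and 9.54 uninduced, a 3.04-fold rise. SPRY1, a Sprouty inhibitor of receptor signalling, rose 2.69-fold, while its relative SPRY4 gave 7.63 and 7.73 induced, against 10.22 and 10.11 uninduced, and fell by 2.49 on the log2 scale (SE 0.090). SPRED1 fell by 1.22 (SE 0.093). The 5 rises became 3 without uninduced array 1 or without uninduced array 2.

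The EGR corepressor NAB2, whose gene is itself a classic EGR target, did not pass: 8.08 and 7.92 log2 units induced, against 8.09 and 8.13 uninduced, a difference of -0.11 (SE 0.092, limma adjusted p = 0.398). NAB1 read 7.91 and 8.18 induced, against 7.77 and 7.89 uninduced, and gave 0.21 (SE 0.11, limma adjusted p = 0.172). For both NAB2 and NAB1 the induced arrays differed more from each other than the group means did, and the groups lay close together. In the list of 8 EGR cofactors, corepressors and WT1, 2 fell and 0 rose (median -0.16), and the 25% lower is near the 24.6% of all genes. HCFC1, a transcriptional cofactor, was 9.54 on both induced and 10.07 on both uninduced arrays. WT1, a zinc finger protein that binds sites like those of EGR1, was 7.86 and 7.37 induced, against 8.14 and 8.13 uninduced, and its call ended without induced array 2 and without either uninduced array, leaving 1 fall in the list each time.

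Of 9 partners of NR4A proteins, namely receptors, cofactors and BCL2, 3 rose, 2 fell and 4 did not pass, with a median of 0.15. These shares were 33.3% higher and 22.2% lower, beside 20.6% and 24.6% over all genes. RXRB, a retinoid X receptor, read 9.82 and 9.84 induced, against 9.08 and 9.05 uninduced, and rose 1.70-fold, whereas RXRA, the partner of NR4A1 and NR4A2 on DNA, gave 0.14 and no call. NCOA1, a nuclear receptor coactivator, rose 1.62-fold, a call lost without uninduced array 1, where 1 of the 9 rose. TRIM28, a corepressor, fell by 1.06 (SE 0.082), and DAXX fell by 0.94 (SE 0.089).

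Of 24 measured genes known as EGR targets in other systems, 5 rose, 5 fell and 14 did not pass, with a median of -0.01 against 0.0 over all genes. The 20.8% called in each direction is near the all-gene shares of 20.6% higher and 24.6% lower, so the list did not stand out by its calls. The largest rise was that of GDF15, a secreted stress cytokine that is also a direct p53 target, with 11.34 and 11.30 log2 units induced, against 7.69 and 7.53 uninduced. GADD45A, a stress gene that likewise answers to p53, rose 2.93-fold. ICAM1, an adhesion molecule, was 8.89 and 8.90 induced, against 10.12 and 10.10 uninduced, a fall of 1.22 (SE 0.081), and TGFB1 fell by 0.92 (SE 0.082). The growth factor genes PDGFA (-0.07) and PDGFB (0.07), the coagulation factor gene F3 (-0.22) and TP73 (-0.09) did not pass. The rises numbered 2 without uninduced array 1, 2 without uninduced array 2 and 3 without induced array 2, and the falls 2 without either uninduced array. Centring each array on its median, which shifts all differences up by 0.08, gave 9 rises.

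Genes known as NR4A targets, many of them steroid, catecholamine or liver genes, mostly did not pass. Of 16 measured, 1 rose, 1 fell and 14 did not pass (median 0.10), which is 6.25% each way, against 20.6% higher and 24.6% lower over all genes. The list's median level was only 6.197 log2 units induced and 6.135 uninduced. The 19 blood, fibroblast and endothelial markers had medians about as low, 6.06 induced and 5.915 uninduced. These are levels of different probe sets, whose probes differ in affinity. Whether low signal limited the calls in this list was not tested. ENO3, muscle enolase, was 6.68 and 6.49 log2 units induced, against 7.47 and 7.40 uninduced, and fell by 0.85 (SE 0.097). STAR, which carries cholesterol into mitochondria, was 6.71 and 6.98 induced, against 6.50 and 6.42 uninduced, and its call ended without induced array 2 and without either uninduced array, leaving 0 rises.

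**Figure D4:**
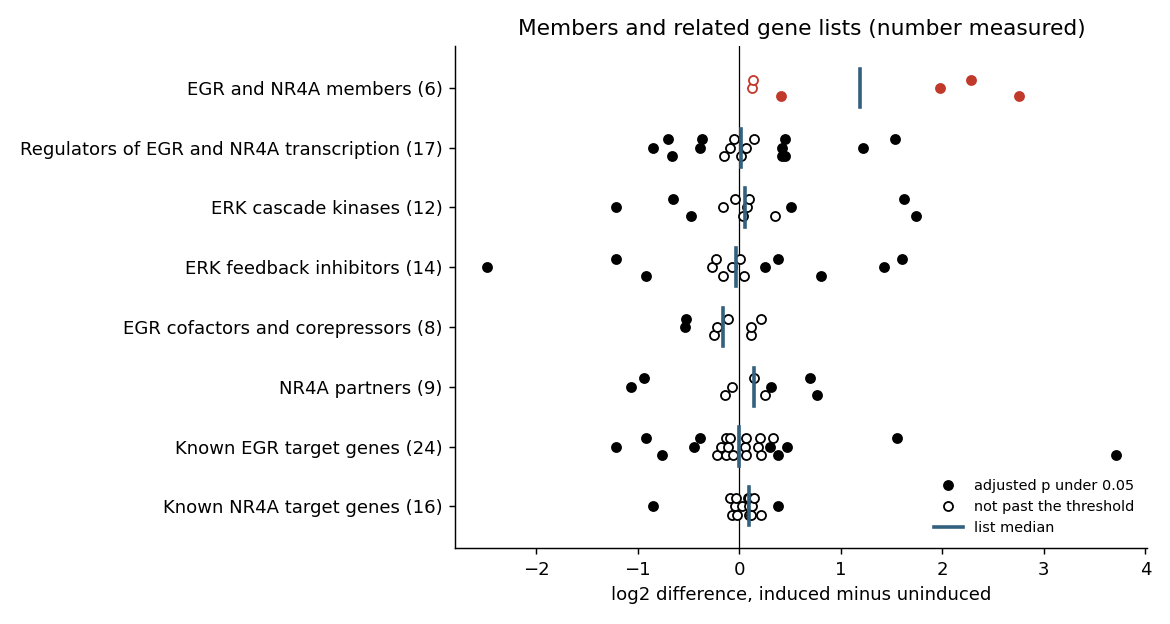
Log2 differences, induced minus uninduced, of the 6 members (red) and of 7 related lists (black), 1 point a gene, with the list median as a blue bar; filled points passed the threshold. The medians of the related lists lie between -0.16 and 0.15, and that of the members at 1.2.

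Of 37 other immediate early genes, 14 rose, 11 fell and 12 did not pass, with a median log2 difference of 0.08. The shares were 37.8% higher and 29.7% lower, against 20.6% and 24.6% over all genes. Rises numbered 9 without induced array 1, 9 without uninduced array 1 and 8 without uninduced array 2. PLK3, a stress-activated polo-like kinase and p53 target, read 12.04 and 12.01 log2 units induced, against 7.88 and 7.83 uninduced. RHOB, a small GTPase induced by stress, was 11.28 and 11.41 induced, against 8.32 and 8.13 uninduced, an 8.69-fold rise. PLK2 rose 5.28-fold, with 11.42 and 11.47 induced and 9.03 and 9.06 uninduced. ZFP36, the mRNA decay factor tristetraprolin, was 9.75 on both induced arrays, against 7.84 and 7.63 uninduced, a 4.04-fold rise. EGR1, NR4A1 and NR4A3 stood between or beside these 4 genes in size.

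AP-1 dimers are built from FOS, JUN and ATF proteins, and of the 8 AP-1 genes in the immediate early list 4 rose, 2 fell and 2 did not pass. The all-gene shares were 20.6% higher and 24.6% lower, and so small a group was not tested against them. FOS was 8.32 and 8.44 log2 units induced, against 7.64 and 7.56 uninduced, a 1.72-fold rise. JUNB was 10.19 and 10.07 induced, against 9.28 and 9.15 uninduced, a 1.89-fold rise. JUN was 7.96 and 7.98 induced, against 8.54 and 8.48 uninduced, and fell by 0.54 (SE 0.082). ATF3 (0.48) and JUND (0.30) also rose, and FOSL1 (-0.45) fell. FOSB (0.06), FOSL2 (0.0) and the early genes IER2 (0.21) and MCL1 (-0.08) did not pass, nor did the neuronal early factor NPAS4 (-0.07). Falls were led by KLF10 (-1.24), KLF6 (-1.17), both zinc finger factors, and MYC (-0.99). The AP-1 genes were grouped, and they and the genes given with them here were named, after their values were seen.

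**Figure D5:**
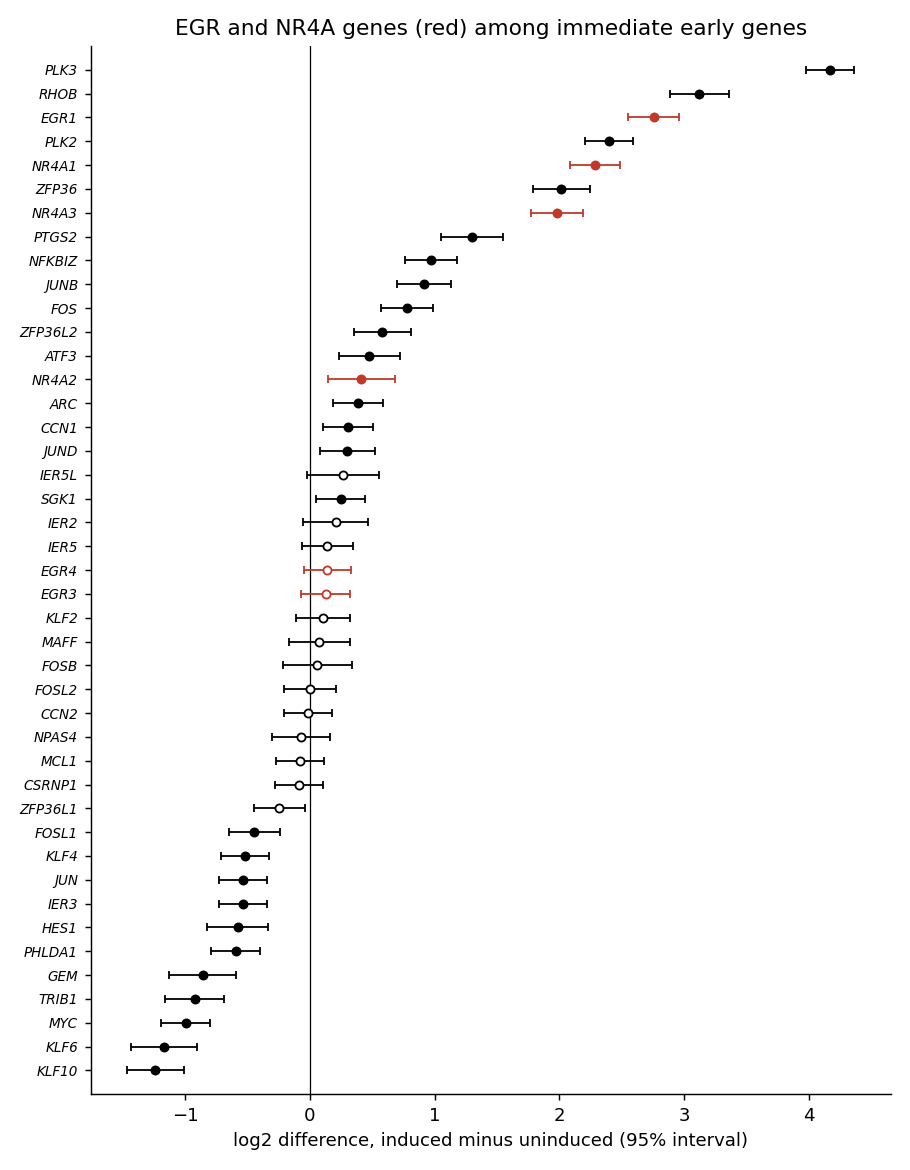
Log2 differences, induced minus uninduced, with 95% intervals for EGR and NR4A genes (red) among 37 other immediate early genes (black); filled points passed the threshold. EGR1, NR4A1 and NR4A3 lie near the top with PLK3, RHOB, PLK2 and ZFP36, while EGR3 and EGR4 lie among genes not past the threshold.

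The genes whose profiles over the 4 arrays were most like those of EGR1 and NR4A1 were found by the root mean square difference after each profile was centred on its mean. For EGR1 these were HACE1, a ubiquitin ligase (0.021 log2 units), ZFP90, a zinc finger gene (0.032), and P4HA2, a collagen prolyl hydroxylase (0.032). HACE1 read 11.72 and 11.80 induced, against 8.97 and 9.06 uninduced. For NR4A1 they were EEIG1 (0.017), the ephrin receptor gene EPHB4 (0.027) and LTBP2, a binding protein of latent TGF-beta (0.029). With 4 arrays in 2 groups, this likeness mostly means a log2 difference of equal size.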

How the data were processed

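Total RNA was labelled as biotinylated cDNA and hybridised to Affymetrix arrays, per the labels' protocols. The deposited values are log2 expression levels, 1 per probe set and array, which the authors made with Affymetrix Expression Console and RMA, per the submitters' processing notes, with versions, settings and genome build not given in the sources used here. RMA equalises the arrays' distributions, so a shift shared by all transcripts would not show. The number of arrays limits the precision.

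Of 33297 rows, 19460 had 1 gene symbol, updated through gene IDs to GRCh38.p14 names. The brightest probe set represented each of 18417 genes. limma 3.58.1 in R 4.3.3 fitted induced against uninduced arrays (lmFit, eBayes, no covariate, 7.20 total degrees of freedom), two-sided, adjusted by Benjamini-Hochberg over all genes. SEs and 95% intervals are limma's. The fit was tested on simulated data. Motifs were searched in RefSeq promoter windows; EGR3 was not searched and no NR4A2 window was used, and EGR2 windows were searched but not printed. Figures used matplotlib 3.10.9.

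Members and lists were chosen with earlier results of these data known. Named were the members, CDKN1A, MDM2, NAB1, NAB2, SRF, up to 4 called genes of largest change per list other than markers, 1 called neighbour per member and the 3 likest profiles of 2 members. Further genes, such as MAPK3, PDGFA, ETF1 and all markers, were named after their values were seen. Alternatives were renormalization, centring, a filter on dim probe sets, averaged probe sets, all rows, another prior, treat, a replicate block and leaving out each array. Same-numbered arrays' deviations correlated at 0.225 over genes, and 2 pairs do not settle whether numbers pair samples.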

Additional observations from a re-analysis of the deposited data

How the results depend on the processing

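All alternatives were planned. Under the 12 alternatives no member changed direction, and EGR1, NR4A1 and NR4A3 stayed called and EGR3 and EGR4 uncalled in each, except that EGR3 was not tested without dim probe sets. With a replicate block, 7820 genes and 3 members were called; there the NR4A2 difference of 0.41 lost its call, as it did over all rows of the table (0.41) and with treat (0.41). With treat, 5479 genes were called, and the lists held 1 EGR cofactor lower, 2 regulators higher and 3 lower, 3 feedback inhibitors higher, 9 other immediate early genes higher, 2 EGR targets higher and 3 lower, and 0 NR4A targets higher. EGR cofactors called lower numbered 1 also over all rows, after quantile normalization again and with the block. NR4A targets called higher numbered 0 over all rows and with the block, and 2 after centring or quantile normalization. Without dim probe sets 0 were higher and 0 lower, because that filter left out STAR and ENO3, which were thus not tested. EGR targets called higher numbered 9 after centring.

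Leaving out each array in turn gave 4959 to 6904 genes, 3 to 4 members and 9 to 15 neighbours called. The lists then held 1 to 2 EGR cofactors lower, 1 to 3 NR4A partners higher, 3 to 6 regulators higher and 3 to 4 lower, 3 to 4 feedback inhibitors higher, 8 to 10 other immediate early genes higher, 2 to 4 EGR targets higher and 2 to 5 lower, and 0 to 1 NR4A targets higher. The NR4A2 difference ranged from 0.26 to 0.56. For 45 other named genes, 521 values kept their side of the threshold and 16, of NCOA1, SRF, STAR or WT1, lost it. The causes were not tested.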
